A study of Mus musculus with 18 samples.

Results

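The genes of vascular endothelial growth factor (VEGF), angiopoietin and apelin signalling were followed through the first days of acute myocardial infarction (AMI). The group holds 10 of the 24419 gene symbols in the deposited table: Vegfa, Pgf, Flt1, Kdr, Angpt1, Angpt2, Tek, Apln, Aplnr and Esm1. They were chosen by symbol as angiogenic ligands and endothelial receptors, and the choice of Aplnr was made on its values at 6 h and 72 h, so Aplnr is described there without a test. Each of the 10 genes reached an FPKM of 1 in at least 1 mouse and passed the filter on low values. FPKM are fragments scaled to the length of the transcript and to the size of the library, so that levels can be set side by side between genes.

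Polyadenylated RNA of heart tissue was sequenced from 18 C57BL/6 mice, all 8 weeks old and male. The control group of 3 mice is the sham group of the study. The other 5 groups, of 3 mice each, had the left anterior descending artery tied near its origin and were killed 10 min, 1 h, 6 h, 24 h or 72 h later, when the infarcted left ventricle was taken. Mice were anaesthetised with pentobarbital and no transgene is named. What the sham operation consisted of is not given in the sources used here. The same sham group served every time point, so comparisons with sham share those 3 mice.

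VEGF ligands signal through tyrosine kinase receptors on endothelial cells. Vegfa binds both Kdr (VEGF receptor 2), the main signalling receptor for endothelial growth and permeability, and Flt1 (VEGF receptor 1), which binds tightly but signals weakly and also exists as a soluble trap, while placental growth factor (Pgf) binds Flt1 and not Kdr. Angpt1, made by cells around the vessel, activates the receptor Tek (Tie2) and keeps vessels quiet, whereas Angpt2, released by the endothelium itself, competes with it at the same receptor. Apelin (Apln) acts on the G protein-coupled receptor Aplnr in vessels and heart muscle, and endocan (Esm1) is a secreted proteoglycan of sprouting endothelium. Vegfa is a textbook target of the hypoxia-inducible factors, which bind DNA at a short core sequence.

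Promoters of 7 of the 10 genes, 9 promoters in all, were matched in RefSeq (build GRCm38.p6), each from 250 bases before to 50 bases after the start of transcription. Those of Angpt1, Angpt2 and Aplnr were not matched. The letters ACGTG and GCGTG, the hypoxia-inducible factor core, were searched on both strands, so that a match on the other strand reads CACGT or CACGC. A match stood in 5 of the 9 promoters and in 43.8% of all 32851 promoters of the table. The 4 promoters shown belong to the ligands with the largest rises, Pgf and Apln, and to both VEGF receptors. Each is written 5′ to 3′ on the strand of its gene, with core matches in capitals.
Pgf, chr12:85177264-85177563, minus strand: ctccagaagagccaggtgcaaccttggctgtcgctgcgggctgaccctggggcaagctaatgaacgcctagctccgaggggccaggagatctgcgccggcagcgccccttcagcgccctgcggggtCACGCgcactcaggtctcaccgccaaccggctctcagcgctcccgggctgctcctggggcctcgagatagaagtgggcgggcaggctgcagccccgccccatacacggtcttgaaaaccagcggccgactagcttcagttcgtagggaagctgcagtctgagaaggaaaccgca
Apln, chrX:48034804-48035103, minus strand: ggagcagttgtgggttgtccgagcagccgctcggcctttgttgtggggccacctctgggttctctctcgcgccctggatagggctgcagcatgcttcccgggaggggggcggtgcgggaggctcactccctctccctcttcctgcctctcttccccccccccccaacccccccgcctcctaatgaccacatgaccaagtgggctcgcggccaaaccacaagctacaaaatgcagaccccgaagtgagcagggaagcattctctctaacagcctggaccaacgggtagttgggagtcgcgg
Flt1, chr5:147725962-147726261, minus strand: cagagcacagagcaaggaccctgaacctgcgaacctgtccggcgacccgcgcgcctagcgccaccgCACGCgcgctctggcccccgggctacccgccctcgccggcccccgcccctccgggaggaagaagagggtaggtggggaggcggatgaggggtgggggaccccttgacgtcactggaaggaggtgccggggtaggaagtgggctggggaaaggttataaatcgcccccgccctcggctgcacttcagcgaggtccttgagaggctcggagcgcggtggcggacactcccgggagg
Kdr, chr5:75978406-75978705, minus strand: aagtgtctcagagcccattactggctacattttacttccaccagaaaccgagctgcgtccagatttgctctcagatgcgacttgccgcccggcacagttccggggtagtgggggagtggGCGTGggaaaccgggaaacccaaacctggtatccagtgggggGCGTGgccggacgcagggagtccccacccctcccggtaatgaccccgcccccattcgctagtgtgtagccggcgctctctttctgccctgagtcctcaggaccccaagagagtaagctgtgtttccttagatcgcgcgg
The Pgf and Flt1 promoters shown held 1 match each, that of Kdr held 2 and that of Apln none. Of the promoters not shown, 1 of 2 for Vegfa had 2 matches, that of Esm1 had 1, and those of Tek and a second start of Pgf had none. A match describes letters only, and the absence of one says nothing of the factor.

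FPKM summed to between 542418 and 600467 per mouse, and relative depth, estimated from the lowest values, ran from 0.818 to 1.31 of the first sham mouse. Markers of the endothelium were present throughout: all 15 genes of the endothelial list, among them Cdh5 and Pecam1, passed the filter and none was at 0 in any mouse, with a sum of 1063 to 1174.5 FPKM in sham and of 786 to 958 FPKM at 72 h. Ptprb was the largest part of the sham sum, with a mean of 435 FPKM, and had 178 FPKM at 72 h. Pecam1 had means of 175 and 194 FPKM in these groups. The 7 pericyte markers summed to 419 to 439.9 FPKM in sham and 251 to 318 FPKM at 72 h. Sums of the cardiomyocyte, macrophage, fibroblast and neutrophil markers moved far more. The summed FPKM of 6 cardiomyocyte markers was 43036 to 45177 in sham and 17500 to 21288 at 72 h. That of 6 macrophage markers was 306 to 359.5 in sham and 4547 to 6083 at 72 h, and that of 7 fibroblast markers was 461 to 524 and 2463 to 3077. The sum of 5 neutrophil markers was 2.32 to 4.99 in sham, 116 to 997 at 6 h, 42.6 to 965 at 24 h and 49.6 to 60.2 at 72 h. In a whole-tissue sample, fewer cells of a type and less RNA per cell cannot be told apart.

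Over the time course the 10 genes did not move as a block. Pgf rose about an order of magnitude by 6 h while Vegfa stayed near its sham level until 24 h, Angpt2 rose as Angpt1 fell at 6 h, and Apln rose at 24 h, when its receptor Aplnr was below sham. By 72 h the receptors Flt1, Kdr and Tek were all lower than sham. Each time point was compared with sham by limma on log2(FPKM + 1), a scale on which changes of low genes are understated. A gene is called when its Benjamini-Hochberg adjusted p over all genes tested is under 0.05, and SE is the standard error of the log2 difference.

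**Figure D1:**
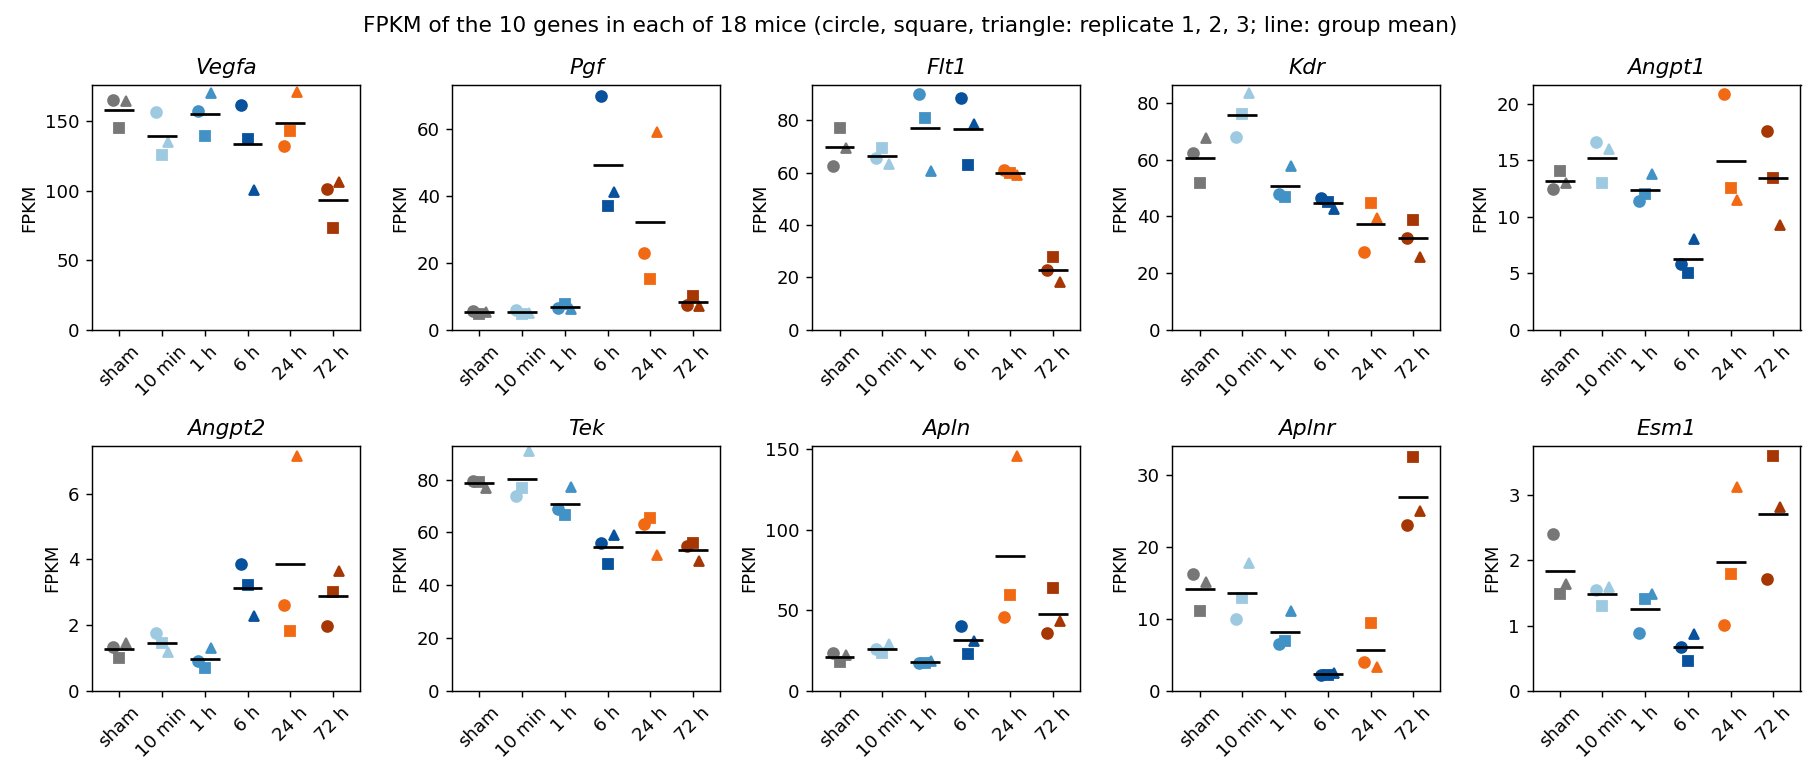
FPKM of the 10 genes (vertical axes, linear from 0) in each of the 18 mice, by group (horizontal axes). Points are single mice, with the shape giving the replicate number, and lines are group means of 3 mice. Pgf stands at 36.8 to 69.8 FPKM at 6 h against 4.84 to 5.59 FPKM in sham, Flt1 drops to 18.3 to 27.9 FPKM at 72 h, and 1 mouse at 24 h has 146 FPKM of Apln.

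At 10 min none of the 10 genes was called, where 0.248% of 13297 genes were higher and 0.0978% were lower. Kdr and Apln had an unadjusted p under 0.05, and in both every 10 min mouse lay above every sham mouse. At 1 h again none of 10 was called, against 0.669% of 13300 genes higher and 0.0526% lower. An unadjusted p under 0.05 was reached by Pgf, Tek and Aplnr. How many of all genes did so, or showed no overlap, was not counted at 10 min or at 1 h. The genes named for these times are therefore not read as changed. At 6 h, of the 9 genes tested, 2 were higher and 4 lower, with 11.6% of 13321 genes called higher and 16.8% lower. At 24 h, 2 of 10 were higher and 3 lower, where 26.2% of genes were called higher and 11.4% lower. The 3 include Aplnr, whose choice had already used the values of these sham mice. The 24 h calls other than that of Pgf were lost without any 1 of the sham mice (adjusted p = 0.0525 to 0.0982). At 72 h, 3 of 9 were higher and 4 lower, where most of the transcriptome had moved and 53.1% of genes were called higher and 24.2% lower. The share of the 9 called higher at 72 h was thus below that of all genes.

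The level of all genes shifted too. The median log2 difference of all genes tested was -0.083 for 6 h, 0.13 for 24 h and 0.29 for 72 h, while that of the 9, 10 and 9 genes counted here was -0.27, -0.040 and -0.013. Median-of-ratios scaling brought the median of all genes to 0.017 at 24 h and 0.037 at 72 h, and quantile normalization to -0.044 and -0.10. Relative to the median of all genes at 72 h, Apln was higher by 0.82, Angpt2 by 0.47 and Pgf by 0.27 on the log2 scale. On the same footing Vegfa stood at -1.06, Kdr at -1.19, Tek at -0.84 and Flt1 at -1.86. With quantile normalization only 1 gene of the 9, Apln, was called higher at 72 h, and the 4 lower genes were called as before.

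**Figure D2:**
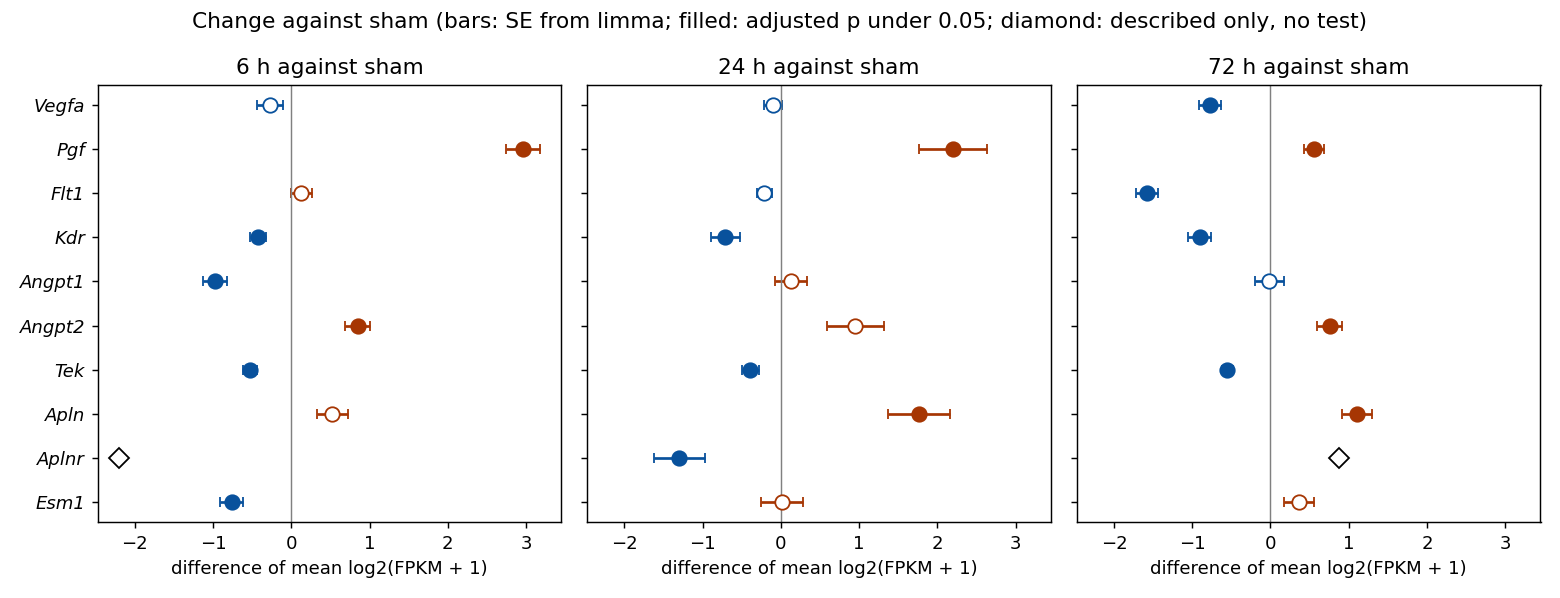
Difference of mean log2(FPKM + 1) between AMI and sham mice (horizontal axis) for the 10 genes at 6 h, 24 h and 72 h, 3 mice per group. Bars are the SE from limma, filled points have an adjusted p under 0.05, open points do not, and diamonds mark Aplnr where it is described without a test. Pgf has the largest rise at 6 h and at 24 h, and Flt1 the lowest value at 72 h.

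Vegfa (chromosome 17, 46016993 to 46032369, minus strand, mm10) was the most abundant of the 10 genes in sham, with 165, 145 and 165 FPKM. At 6 h it had 162, 138 and 101 FPKM and at 24 h 132, 143 and 171 FPKM. Both groups overlapped with sham, and neither difference was called (log2 difference -0.27 with SE 0.16, adjusted p = 0.243, at 6 h, and -0.097 with SE 0.12, adjusted p = 0.529, at 24 h). At 72 h Vegfa fell to 101, 73.0 and 106 FPKM, each below all sham mice. The mean was 159 ± 11.5 FPKM in sham and 93.6 ± 18.0 FPKM at 72 h (SD, n = 3 each), a log2 difference of -0.77 (SE 0.14, adjusted p = 0.000829). Compared directly with 24 h it was also lower (-0.67, SE 0.17, adjusted p = 0.0168). The cardiomyocyte markers fell over the same interval, and their part in the fall of Vegfa was not tested.

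Pgf (chromosome 12, 85166635 to 85177790, minus strand) had 5.59, 4.84 and 5.19 FPKM in sham, 5.98, 4.75 and 5.04 FPKM at 10 min and 6.40, 7.61 and 6.14 FPKM at 1 h. The 1 h mice all lay above the sham mice, by 1.29-fold in the mean, which was not called (log2 difference 0.31, SE 0.095, adjusted p = 0.269). At 6 h Pgf had 69.8, 36.8 and 41.0 FPKM. This was 9.45-fold the sham mean (log2 difference 2.96, SE 0.22, adjusted p = 0.000473), and placed it 60 of 13321 genes ranked by rise. It stood at 22.8, 15.2 and 58.9 FPKM at 24 h (log2 difference 2.20, SE 0.43, adjusted p = 0.0114). At 72 h it was back at 7.47, 10.1 and 7.12 FPKM, still above every sham mouse (log2 difference 0.56, SE 0.12, adjusted p = 0.00285), a call that was lost with median-of-ratios scaling (0.28, adjusted p = 0.0518) and with quantile normalization (0.11, adjusted p = 0.449). The step from 1 h to 6 h was called (2.65, SE 0.23, adjusted p = 0.00101), as was the fall from 24 h to 72 h (-1.64, SE 0.43, adjusted p = 0.0192). The mouse with the most Pgf at 6 h, the first, also had the highest neutrophil sum, 997 FPKM, and so had the third mouse at 24 h, with 965 FPKM. The part of neutrophils in the level of Pgf was not tested.

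Within each mouse, Pgf was set against Vegfa as a log2 ratio of (FPKM + 1), which does not depend on the scaling of that mouse beyond the added 1. The ratio was -4.66, -4.65 and -4.74 in sham, -1.20, -1.87 and -1.28 at 6 h, -2.48, -3.15 and -1.53 in the 24 h mice and -3.60, -2.74 and -3.73 in the 72 h mice. Pgf was thus a small fraction of Vegfa in sham, 0.0315 to 0.0338 in plain FPKM, and 0.267 to 0.431 of it at 6 h. The difference from sham was 3.23 at 6 h, 2.30 at 24 h and 1.33 at 72 h, with no overlap. It was 0.20 at 10 min and 0.34 at 1 h, also without overlap. An exact two-sided permutation test gave p = 0.1 each time, the smallest that 3 against 3 mice allow, and 0.188 after adjustment over the 15 ratio tests.

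Flt1 (chromosome 5, 147561604 to 147726011, minus strand), the receptor shared by Vegfa and Pgf, had 62.6, 76.9 and 69.4 FPKM in sham. It had 88.5, 62.9 and 78.7 FPKM at 6 h and 60.8, 59.8 and 58.9 FPKM at 24 h, neither of which was called (log2 difference 0.13, SE 0.14, adjusted p = 0.494, and -0.21, SE 0.093, adjusted p = 0.113). At 72 h it fell to 22.8, 27.9 and 18.3 FPKM. None of those mice reached even 0.5 of the lowest sham value, and the mean was 0.33 of the sham mean (log2 difference -1.57, SE 0.14, adjusted p = 1.25e-05). Against 24 h the fall was as clear (-1.36, SE 0.15, adjusted p = 0.000484). Of the 7 genes called at 72 h, Flt1 had the difference farthest from 0.

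Kdr (chromosome 5, 75932827 to 75978458, minus strand), the main signalling receptor of Vegfa, had 62.5, 51.9 and 67.5 FPKM in sham and 67.9, 76.2 and 83.4 FPKM at 10 min. The means of later groups were 50.9 ± 5.98 FPKM for 1 h, 44.7 ± 1.91 FPKM for 6 h, 37.3 ± 8.86 FPKM for 24 h and 32.2 ± 6.48 FPKM for 72 h (SD, 3 mice in each). The 1 h mice overlapped with sham, while the groups from 6 h on lay below all sham mice. The difference was called at 6 h (-0.42, SE 0.11, adjusted p = 0.0245), 24 h (-0.71, SE 0.19, adjusted p = 0.0266) and 72 h (-0.90, SE 0.15, adjusted p = 0.000521). None of the steps from 1 h to 6 h, 6 h to 24 h and 24 h to 72 h was called (adjusted p = 0.238, 0.281 and 0.489). The call at 6 h was lost with median-of-ratios scaling, where the log2 difference was -0.32 (adjusted p = 0.062), with all 18 mice in one fit (0.0607), and without the first (0.0928) or the third (0.0915) sham mouse.

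The log2 ratio of Flt1 to Kdr was 0.0022, 0.56 and 0.040 in sham, 0.91, 0.48 and 0.86 at 6 h and 1.12, 0.41 and 0.56 at 24 h. It then was -0.49, -0.46 and -0.47 at 72 h, where all mice lay below all sham mice and close together. The difference from sham was 0.55 at 6 h and 0.50 at 24 h (exact permutation p = 0.2 each, adjusted 0.273) and -0.67 at 72 h (p = 0.1, adjusted 0.188). At 10 min it was -0.39, also without overlap (exact permutation p = 0.1).

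**Figure D3:**
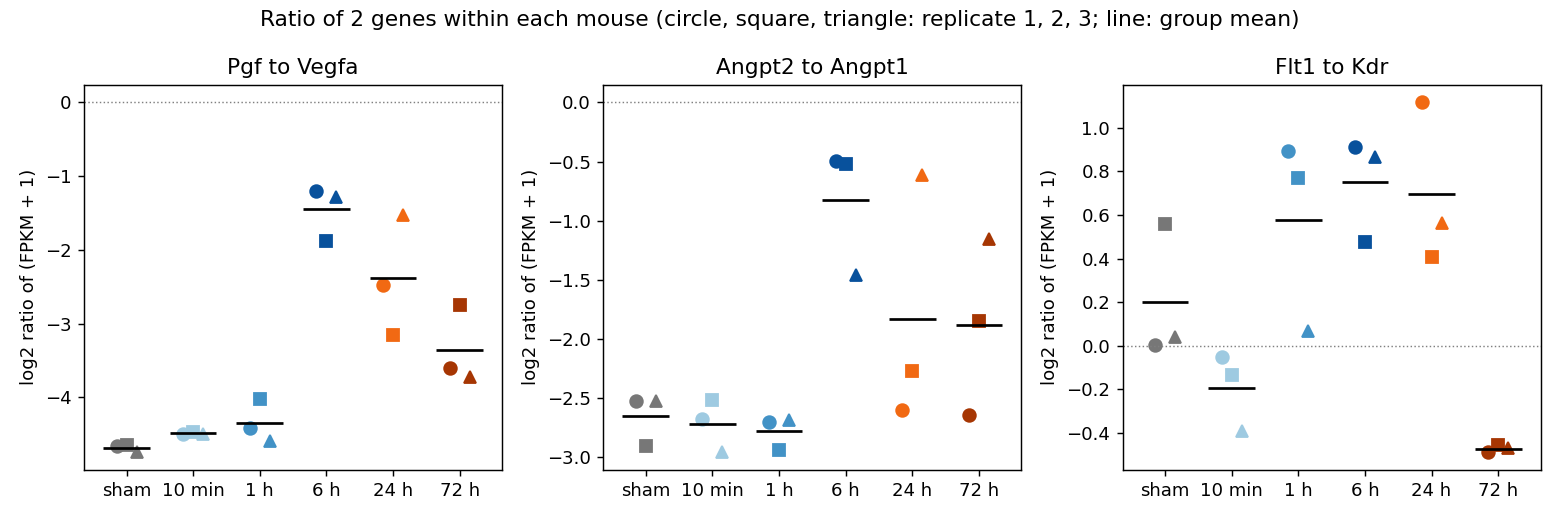
Log2 ratio of (FPKM + 1) of Pgf to Vegfa, Angpt2 to Angpt1 and Flt1 to Kdr (vertical axes) in each mouse by group, with lines at the mean of 3 mice. Pgf to Vegfa rises from between -4.74 and -4.65 in sham to between -1.87 and -1.20 at 6 h, Angpt2 to Angpt1 lies between -1.46 and -0.50 at 6 h against -2.90 to -2.52 in sham, and Flt1 to Kdr drops below 0 at 72 h.

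Angpt1 (chromosome 15, 42424723 to 42676977, minus strand), the agonist of Tek, had 12.5, 14.03 and 13.0 FPKM in sham. It had 5.87, 5.04 and 8.03 FPKM at 6 h, all below sham. The mean was 0.479 of the sham mean (log2 difference -0.97, SE 0.15, adjusted p = 0.00505), and it was 159 of 13321 genes ranked by fall. At 24 h it was back at 20.9, 12.5 and 11.5 FPKM and at 72 h at 17.6, 13.4 and 9.32 FPKM, spread on both sides of sham (log2 difference 0.13, SE 0.21, adjusted p = 0.647, and -0.013, SE 0.18, adjusted p = 0.952). The recovery from 6 h to 24 h was called (1.10, SE 0.25, adjusted p = 0.0326), and was not without any 1 of the 6 h mice (0.0589 to 0.111), without the second 24 h mouse (0.0898) or under other settings given in the closing section. In that step 12.5% of genes were called higher and 1.94% lower, and Angpt1 was the only gene of 9 called. The 7 pericyte markers were chosen for cells around the capillary, and whether heart muscle or other cells also expressed them was not tested. They summed to 419 to 439.9 FPKM in sham, 311 to 342 FPKM at 6 h and 262 to 327 FPKM at 24 h. The largest part was Abcc9, with means of 162, 111 and 81.9 FPKM. Mean FPKM of Abcc9, Rgs5 and Kcnj8 was lower at 24 h than at 6 h, and that of Notch3, Higd1b, Pdgfrb and Cspg4 was higher. From 6 h to 24 h the median log2 difference was 0.25 for the pericyte list and 0.20 for all genes. The part of pericytes in the level of Angpt1 was not tested.

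Angpt2 (chromosome 8, 18690263 to 18741562, minus strand), the competing ligand, was low in sham, with 1.34, 1.01 and 1.44 FPKM. It had 3.87, 3.21 and 2.28 FPKM at 6 h, 2.61, 1.81 and 7.14 FPKM at 24 h and 1.97, 3.02 and 3.63 FPKM at 72 h. Every one of these 9 mice was above every sham mouse. The rise was called at 6 h (2.47-fold, log2 difference 0.85, SE 0.16, adjusted p = 0.00969) and at 72 h (2.28-fold, log2 difference 0.76, SE 0.16, adjusted p = 0.00248), the latter not with quantile normalization (adjusted p = 0.275). At 24 h, where the third mouse had more than the other mice together, it was not called (log2 difference 0.95, SE 0.37, adjusted p = 0.0777). From 1 h to 6 h the rise was 1.06 (SE 0.18, adjusted p = 0.00909).

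The log2 ratio of Angpt2 to Angpt1 was -2.53, -2.90 and -2.52 in sham and -0.50, -0.52 and -1.46 at 6 h. In plain FPKM, Angpt2 was 0.0719 to 0.110 of Angpt1 in sham and 0.284 to 0.660 of it at 6 h. The difference from sham was 1.83 with no overlap (exact permutation p = 0.1, adjusted 0.188). At 24 h the ratio was -2.60, -2.27 and -0.62 and at 72 h -2.64, -1.84 and -1.16. Both groups overlapped with sham (differences of 0.82 and 0.77, exact permutation p = 0.3 each, adjusted 0.346).

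Tek (chromosome 4, 94739289 to 94874976, plus strand), the receptor of both angiopoietins, had 79.6, 79.3 and 77.0 FPKM in sham. It fell to 56.2, 47.9 and 58.9 FPKM at 6 h (log2 difference -0.53, SE 0.090, adjusted p = 0.00667). It then had 63.3, 65.5 and 51.6 FPKM at 24 h (-0.39, SE 0.11, adjusted p = 0.0278) and 54.9, 56.0 and 49.3 FPKM at 72 h (-0.55, SE 0.068, adjusted p = 8.8e-05). All 9 mice lay below all sham mice, while the 1 h group, with 68.9, 66.5 and 77.4 FPKM, overlapped with sham. The step from 1 h to 6 h was called (-0.38, SE 0.10, adjusted p = 0.0401), and the steps after 6 h were not (adjusted p = 0.476 and 0.311). That call was lost without any 1 of the 1 h mice (0.0919 to 0.129), without the first (0.064) or second (0.0744) 6 h mouse, with no filter (0.0596), with median-of-ratios scaling (0.0623) and with no variance trend (0.0511).

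Apln (chromosome X, 48025146 to 48034853, minus strand), the ligand of Aplnr, had 23.3, 17.8 and 22.0 FPKM in sham and 25.9, 23.7 and 28.7 FPKM at 10 min. The 10 min mice lay just above the sham mice (log2 difference 0.30, SE 0.11, adjusted p = 0.276, not called). At 6 h Apln had 40.3, 22.6 and 31.1 FPKM, the second mouse within the sham range, and was not called against sham (log2 difference 0.53, SE 0.20, adjusted p = 0.09). Against the 1 h mice, which held 17.2 to 18.4 FPKM, the 6 h mice were higher (0.75, SE 0.19, adjusted p = 0.0305). This call was lost without any 1 of the 1 h mice (0.0788 to 0.0993), without the third 6 h mouse (0.0626), with no filter (0.0589) and with all 18 mice in one fit (0.084). At 24 h it had 45.6, 59.2 and 146 FPKM, 3.97-fold the sham mean (log2 difference 1.77, SE 0.39, adjusted p = 0.0161). It had 36.0, 63.6 and 43.0 FPKM at 72 h (log2 difference 1.11, SE 0.19, adjusted p = 0.000683), and all 24 h and 72 h mice were above all sham mice. The third mouse at 24 h stood apart in Apln, Pgf and Angpt2. Without it 6 of the 10 genes were called at 24 h, 3 higher and 3 lower, and Apln, Pgf and Angpt2 were the higher ones. The share of all genes called in that fit was not counted, so the gain is not read as particular to these genes.

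Aplnr (chromosome 2, 85136225 to 85139923, plus strand), the apelin receptor, had 16.3, 11.1 and 15.2 FPKM in sham and 9.94, 13.0 and 17.9 FPKM at 10 min. At 1 h it had 6.48, 6.99 and 11.1 FPKM. The highest of them lay just below the lowest sham mouse, and the difference was not called (log2 difference -0.74, SE 0.20, adjusted p = 0.233). At 6 h it had 2.13, 2.13 and 2.51 FPKM, the values for which the gene was chosen, with a mean that was 0.159 of the sham mean (log2 difference -2.20). At 24 h it had 4.03, 9.45 and 3.34 FPKM, between the 6 h mice and the sham mice (log2 difference -1.30 against sham, SE 0.33, adjusted p = 0.0233). The sham mice of that test also entered the choice of the gene, and the call was lost without the first 24 h mouse (adjusted p = 0.0551). At 72 h it had 23.1, 32.6 and 25.1 FPKM, again values used in the choice, 1.90-fold the sham mean (log2 difference 0.88). The order of the group means ran from 72 h through sham, 10 min, 1 h and 24 h to 6 h, and of the neighbours in it only 72 h and sham, and 24 h and 6 h, did not overlap. Receptor and ligand thus stood on opposite sides of sham at 24 h and on the same side at 72 h.

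Esm1 (chromosome 13, 113209659 to 113218098, plus strand) was low in all groups, with 2.41, 1.49 and 1.64 FPKM in sham. It fell to 0.68, 0.46 and 0.88 FPKM at 6 h (log2 difference -0.76, SE 0.15, adjusted p = 0.0113), below every other group. At 24 h it had 1.01, 1.80 and 3.13 FPKM and at 72 h 1.71, 3.61 and 2.83 FPKM, overlapping with sham. Neither was called (log2 difference 0.018, SE 0.27, adjusted p = 0.962, and 0.37, SE 0.20, adjusted p = 0.121).

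Between successive times, of the 9 genes tested, 3 rose from 1 h to 6 h (Pgf, Angpt2 and Apln) and 2 fell (Angpt1 and Tek), where 9.32% of genes were called higher and 11.2% lower. With median-of-ratios scaling Tek was not called in that step (adjusted p = 0.0623), which left 3 and 1. From 24 h to 72 h no gene of 9 rose and 3 fell (Vegfa, Pgf and Flt1), where 29.7% of genes were called higher and 13.5% lower.

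The receptors Flt1, Kdr, Tek and Aplnr and the products Angpt2 and Esm1 are made largely by endothelial cells, and were set beside the 15 endothelial markers, which include none of the 10 genes. Of the 15 markers 5 rose and 3 fell at 6 h, where 11.6% and 16.8% of all genes did. The 24 h counts were 3 and 4, where the shares were 26.2% and 11.4%. Those of 72 h were 2 and 7, where the shares were 53.1% and 24.2%. The list had medians of 0.053, 0.052 and -0.18 on the log2 scale against -0.083, 0.13 and 0.29 for all genes. The list did not move as one. Cldn5, a tight junction protein, rose at 6 h (1.92, SE 0.22, adjusted p = 0.0018), while Emcn, a capillary and venous sialomucin, fell (-0.66, SE 0.11, adjusted p = 0.00693). When the mean log2 level of the 15 markers was subtracted in each mouse, Aplnr still differed from sham by -2.41 at 6 h and by 1.01 at 72 h, given as a description. Kdr differed by -0.63, -0.79 and -0.77 at 6 h, 24 h and 72 h, Tek by -0.73, -0.48 and -0.42, and Flt1 by -0.074, -0.30 and -1.44. Angpt2 differed by 0.65, 0.86 and 0.89, and Esm1 by -0.96, -0.069 and 0.50. The subtracted mean itself differed from sham by 0.20, 0.087 and -0.13 at these times, above the list median at 6 h. Before subtraction, Kdr stood at -0.42 and Tek at -0.53 at 6 h. After subtraction, no mouse overlapped with sham in Kdr, Tek or Angpt2 at any of these times. In Flt1 this held at 72 h alone, and in Esm1 at 6 h alone. The fall of Flt1 at 72 h was larger than the largest fall among the 15 markers, that of Ptprb (-1.29, SE 0.12, adjusted p = 1.28e-05), a difference of differences that was not tested.

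**Figure D4:**
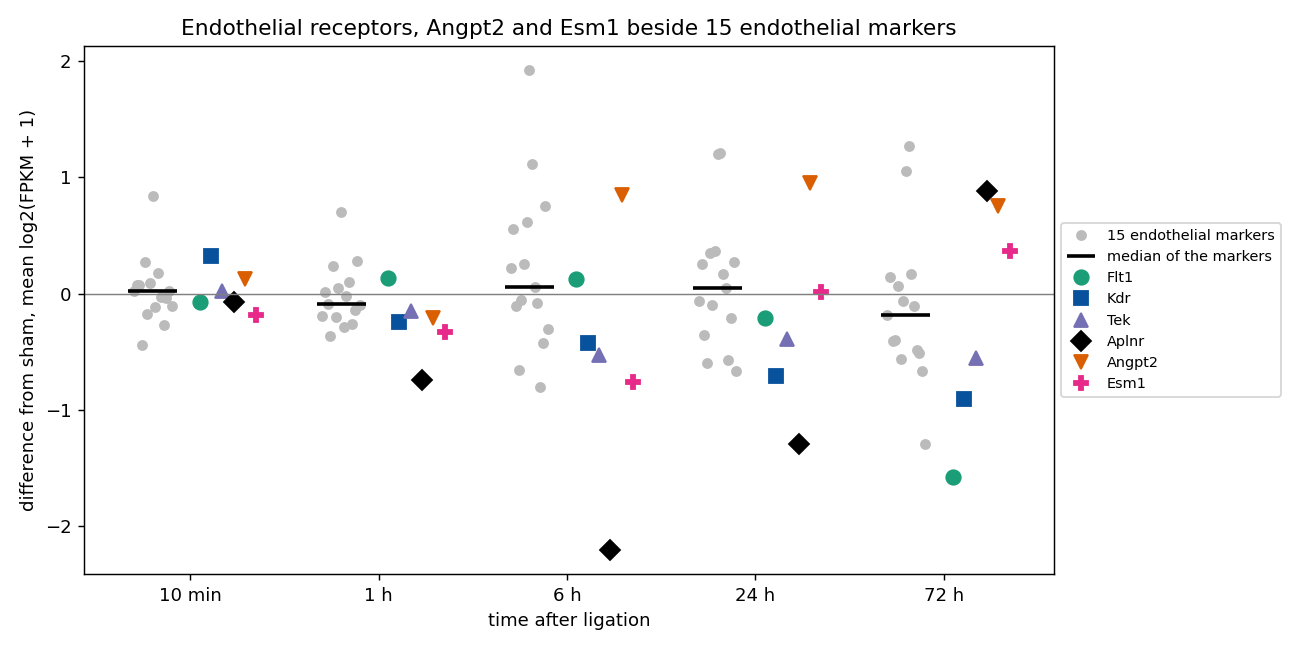
Difference from sham in mean log2(FPKM + 1) (vertical axis) by time after ligation (horizontal axis) for 15 endothelial markers (grey points, with their median as a black line) and for Flt1, Kdr, Tek, Aplnr, Angpt2 and Esm1 (coloured symbols), 3 mice per group. Aplnr lies at -2.20 at 6 h, below all 15 markers, and at 0.88 at 72 h. It was chosen on its values at these times, so both places are a description only. Flt1 lies at -1.57 at 72 h, below all 15 markers.

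Other VEGF ligands and receptors numbered 6 genes. Shares of all genes called higher and lower were 11.6% and 16.8% at 6 h and 26.2% and 11.4% at 24 h. For 72 h they were 53.1% and 24.2%. At 6 h 2 of them were lower, Vegfc (-0.57, SE 0.14, adjusted p = 0.0222), a lymphatic growth factor, and the co-receptor Nrp1 (-0.48, SE 0.11, adjusted p = 0.0194). At 24 h 1 was lower, Vegfb, a ligand of Flt1 (-0.52, adjusted p = 0.021), and at 72 h it stood at 18.4 FPKM against 49.9 in sham (-1.43, SE 0.18, adjusted p = 8.95e-05). Also at 72 h 2 were higher, Figf (the symbol used for VEGF-D), from 1.72 to 14.3 FPKM (2.50, SE 0.15, adjusted p = 1.14e-06), and the co-receptor Nrp2 (0.67, adjusted p = 0.0013). The lymphatic receptor Flt4 had group means between 16.5 and 19.1 FPKM and was not called against sham at any time. Of 4 further genes of the angiopoietin and apelin pathways, Angpt4 and the second Aplnr ligand Apela were under the filter. Tie1, the co-receptor of Tek, and Ptprb, the phosphatase that removes phosphate from Tek, both also among the 15 markers, were lower at 24 h (-0.35, adjusted p = 0.0409, and -0.66, adjusted p = 0.00998) and at 72 h (-0.41, adjusted p = 0.000824, and -1.29, as above).

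Downstream of Kdr, 6 effector genes were tested. At 6 h 2 of them rose and 1 fell, by 24 h 3 stood above sham and 1 below it, and for 72 h the counts were 4 and 2. For comparison, the share of all genes that rose was 11.6%, 26.2% and 53.1% in these 3 comparisons and the share that fell 16.8%, 11.4% and 24.2%. Which cells of the tissue expressed these 6 genes was not tested. Rcan1, a calcineurin target that VEGF induces in endothelium, went from 14.4 to 75.8 FPKM at 6 h (2.30, SE 0.15, adjusted p = 0.000302), and the adaptor Shb rose at 6 h (1.13, SE 0.23, adjusted p = 0.0124). Plcg1, the phospholipase that binds Kdr, was lower at 6 h, 24 h and 72 h (-0.39, -0.53 and -0.55, adjusted p = 0.0208, 0.0146 and 0.000298). Of 8 endothelial Notch genes 1 rose at 6 h, none was called at 24 h, and in the 72 h mice 1 was higher and 2 lower. Dll4, the Notch ligand of sprouting cells, was the higher one at 6 h (0.29, SE 0.087, adjusted p = 0.0435) and was lower at 72 h (-0.67, SE 0.13, adjusted p = 0.00145). Genes of tip cells and sprouting, 9 tested, were mixed at 6 h (1 higher, 3 lower), and then 3 rose by 24 h and 5 by 72 h with none lower, where 26.2% and 53.1% of all genes rose. Among them were Plvap, which lines fenestrated vessels, at 72 h (2.51, SE 0.13, adjusted p = 4.45e-07), and Unc5b, which was lower at 6 h and higher at 72 h (-0.83, adjusted p = 0.0036, and 1.23, adjusted p = 0.000315). Cxcr4 of the same list (2.50 at 72 h, adjusted p = 4.43e-07) is also expressed by leukocytes, whose markers rose.

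Of 12 hypoxia targets outside the group, 5 rose and none fell at 6 h, and again at 24 h, while the 72 h mice had 4 higher and 4 lower. The shares of all genes called higher at those times were 11.6%, 26.2% and 53.1%, and 24.2% were lower at 72 h. The glucose transporter Slc2a1 rose at all 3 times (2.35, 2.32 and 1.04, adjusted p = 0.00103, 0.0125 and 4.54e-05), and adrenomedullin (Adm), a vasodilator peptide, at 6 h (1.03, SE 0.18, adjusted p = 0.00796). Hk2, a hexokinase, was lower at 72 h (-1.18, adjusted p = 2.31e-06). Of 13 endothelial and hypoxia transcription factors, 2 were higher at 1 h, where 0.669% of all genes were called higher. At 6 h 3 rose and 1 fell, the 24 h counts were 2 and 1, and those of 72 h were 3 and 6. The shares of all genes called lower were 16.8% at 6 h and 11.4% at 24 h. Hif1a rose at 6 h (1.09, SE 0.20, adjusted p = 0.00952), 24 h (0.99, adjusted p = 0.0197) and 72 h (1.41, adjusted p = 2.28e-06). Its paralogue Epas1, the main such factor of endothelium, fell at 24 h (-0.52, adjusted p = 0.00933) and 72 h (-1.44, SE 0.087, adjusted p = 1.19e-06). The flow-induced factor Klf2 rose at 1 h, from 45.1 to 124 FPKM (1.44, SE 0.19, adjusted p = 0.0157), and was called at no other time.

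Inhibitors of angiogenesis had 3 of 9 genes called higher as early as 1 h. Both the 6 h and the 24 h mice had 5 higher and 2 lower, and the 72 h mice 7 and 1, while the share of all genes that rose was 0.669%, 11.6%, 26.2% and 53.1% in these 4 comparisons. Thrombospondin 1 (Thbs1) went from 2.54 FPKM in sham to 12.8 FPKM at 1 h (1.95, SE 0.15, adjusted p = 0.000653) and 127 FPKM at 6 h (5.01, SE 0.37, adjusted p = 0.000473). The metalloprotease Adamts1 and Spry4, a feedback inhibitor of receptor tyrosine kinases, were the other two at 1 h (1.26 and 1.11, adjusted p = 0.000663 and 0.00233). Of 7 other angiogenic ligands and receptors, 5 rose and 1 fell at 6 h, 3 rose and none fell by 24 h, and the counts for 72 h were 4 and 2. The shares of all genes that rose and fell by 72 h were 53.1% and 24.2%. Hbegf, an EGF receptor ligand, rose at 6 h from 5.09 to 73.3 FPKM (3.53, SE 0.27, adjusted p = 0.000475), and Hgf at 72 h from 0.116 to 4.76 FPKM (2.36, SE 0.12, adjusted p = 3.35e-07). Fgf1, which is made by heart muscle, was higher at 6 h and lower at 72 h (0.43, adjusted p = 0.0187, and -1.25, adjusted p = 2.81e-06).

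The genes most like each of the 10 over the 18 mice were found by Pearson's r of log2(FPKM + 1), which is a description, since the mice fall into 6 groups and share the sham-to-AMI contrast. Pgf was most like Mt2, a metallothionein (r = 0.975), Akap2 (0.972) and Hbegf (0.971), and Aplnr most like Chek2 (0.962), C1qtnf2 (0.956) and Mtss1 (0.953). Apln was most like Utp20 (0.968), Tek like Entpd5 (0.944), Angpt2 like Chst1 (0.937) and Kdr like Itpkb (0.929). Esm1, Angpt1 and Vegfa had weaker nearest genes, Zc3h4 (0.899), Ormdl1 (0.858) and Fam57b (0.850).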

How the data were processed

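RNA-seq of 18 mice in 6 groups of 3 was analysed, grouped by the sample titles. Reads were trimmed by the authors (cutadapt 1.18) and aligned to mm10 (HISAT2 2.1.0), and StringTie 1.3.4d gave the deposited values, which are FPKM by gene symbol. The annotation used is not given in the sources used here. No read counts were used, so depth is known only relative to other mice, from the lowest FPKM, and precision comes from the spread between 3 mice. Column names of the 1 h group and of 1 mouse at 6 h are misspelled in the table and were matched to the titles.

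The 13333 of 24419 genes that reached an FPKM of 1 in any mouse were tested on log2(FPKM + 1) with limma 3.58.1 (lmFit, eBayes with a variance trend) in R 4.3.3, two-sided, each comparison on its own 6 mice and leaving out genes with the same value in all 6, and p-values were adjusted by Benjamini-Hochberg across those genes. Ratios within a mouse were compared by exact permutation. The limma fit was tested on simulated data. The alternatives left out each mouse, added 0.1 in place of 1, dropped the filter or set it on the mean, scaled by equal sums, median-of-ratios or quantiles, fitted all 18 mice together, added a replicate block, or dropped the variance trend. Named were the 10 genes, the genes of fixed lists and the 3 genes most like each of the 10, leaving out predicted genes, and 1 of these is not reported here. The genes and lists were chosen with earlier results of these data known. Positions are those of GENCODE release M21. Python 3.11.15, pandas 2.3.3 and matplotlib 3.10.9 were used.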

Additional observations from a re-analysis of the deposited data

Results flagged for a closer look

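In 3 cases the difference from sham had opposite signs at neighbouring times and the direct comparison of the times was called by limma. Angpt1 differed from sham by -0.97 at 6 h and by 0.13 at 24 h on the log2 scale, and the change between those times was 1.10 (SE 0.25, adjusted p = 0.0326, higher in each of 3 mice at 24 h than in any at 6 h). The 24 h difference equals the median of all genes at that time, 0.13, so that relative to all genes Angpt1 had no sign there. Angpt2 differed by -0.21 at 1 h and by 0.85 at 6 h, a change of 1.06 (SE 0.18, adjusted p = 0.00909, with all 3 mice at 6 h above those at 1 h). Apln differed by -0.23 at 1 h and by 0.53 at 6 h, a change of 0.75 (SE 0.19, adjusted p = 0.0305, again with no overlap). The call of Apln was lost without any 1 of the 1 h mice, without the third 6 h mouse, with no filter and with all 18 mice in one fit (adjusted p = 0.0589 to 0.0993). The sham differences at 1 h, that of Angpt1 at 24 h and that of Apln at 6 h were not called on their own.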

How the results depend on the processing

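No difference called for a single gene, and no ratio at 6 h, 24 h or 72 h, changed sign under the alternatives run for it; differences that were not called were not followed, and the median of all genes did change sign at 24 h and 72 h with quantile normalization. The counts of genes called at 10 min (0), 6 h (6), 72 h (7) and from 24 h to 72 h (3) stayed within 1.5 times of themselves under every alternative, with ranges over the mice left out of 0 to 0, 5 to 7, 7 to 8 and 2 to 3. At 1 h the count was 0, and 1 (Aplnr, lower) without the third 1 h mouse, a range of 0 to 1. At 24 h the count of 5 ranged from 1 to 6, and was 1 (Pgf) without any 1 of the sham mice, where the adjusted p of Kdr, Tek, Apln and Aplnr lay between 0.0525 and 0.0982. From 1 h to 6 h the count of 5 was 3 with no filter and 3 to 4 with a mouse left out, 3 without any 1 of the 1 h mice, with Tek and Apln the genes lost. From 6 h to 24 h the count of 1 was 0 with no filter, with median-of-ratios scaling, with quantile normalization and with the replicate block, 3 with all 18 mice in one fit, and 0 to 3 with a mouse left out: 0 without any 1 of the 6 h mice or the second 24 h mouse, 3 without the first and 2 without the third 24 h mouse. The log2 ratio of Angpt2 to Angpt1 at 6 h against sham was 2.38 with a pseudocount of 0. Fewer mice or more genes tested enter by construction, and otherwise the cause was not tested. The fall of Pgf from 24 h to 72 h was not called without the first 72 h mouse (adjusted p = 0.0584) or the third (0.0656), and its call at 72 h was lost with median-of-ratios scaling (0.0518) and with all 18 mice in one fit (0.144). Replicate numbers were not taken as pairs, since deviations of same-numbered mice correlated between -0.33 and 0.41 and in only 5 of 45 pairs above 0.1. With the replicate block the counts were 7 at 6 h, 6 at 24 h and 7 at 72 h. Shares of all genes called under the alternatives were not counted. Angpt2 and Esm1, which reached 1 FPKM in 16 and 14 of the 18 mice, lay closest to the filter.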

Other observations

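Markers of the kinds of endothelium and of the vessel wall moved unevenly. Of all genes, 11.6% were called higher and 16.8% lower at 6 h. The shares were 26.2% and 11.4% at 24 h, and 53.1% and 24.2% at 72 h. With 3 to 7 genes to a list, the counts are a description. Of 6 arterial markers 1 was higher than sham at 6 h by limma, against 1 higher and 1 lower in the 24 h mice and 2 higher and 1 lower in the 72 h mice. Of the 3 venous markers tested, 1 was higher at 72 h and none was called at the other times. The 3 endocardial markers summed to 10.7 to 17.2 FPKM in sham, 7.17 to 10.2 FPKM at 24 h and 21.9 to 23.4 FPKM at 72 h, and at both of these times 1 marker was higher and 2 were lower. Of 5 lymphatic markers 2 were higher at 6 h, 1 was higher at 24 h, and 1 was higher and 1 lower at 72 h. The 4 smooth muscle markers summed to 123 to 160.5 FPKM in sham and 93.1 to 120.4 FPKM at 6 h, where 2 were lower. At 72 h they summed to 256 to 336 FPKM, with 2 higher and 1 lower. Acta2 had a mean of 71.3 FPKM in sham and 232 FPKM at 72 h, and Cnn1 2.57 and 9.95 FPKM. Myh11 had 18.4 and 7.36 FPKM and Smtn 50.5 and 47.6 FPKM. Of 7 pericyte markers none was higher and 4 were lower at 6 h, 3 were lower at 24 h, and 1 was higher and 4 lower at 72 h.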
